A study of Mus musculus with 12 samples.

Results

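The tryptophan to NAD pathway was described here by 10 genes of mouse liver, Tdo2, Ido2, Afmid, Kmo, Kynu, Haao, Acmsd, Aadat, Qprt and Nadsyn1, among 54532 genes in the count tables, of which 28715 had a count. The genes were found by name, and each of the 10 names matched 1 gene. They were chosen by a pathway list that was proposed after PPARγ-KO and wild-type levels in these same libraries had been seen. No cut on a measured value decided membership, so no gene lay just inside or just outside it. For this reason the levels, fold changes and adjusted p-values of the 10 genes are given as a description of these livers and serve as evidence for nothing else.

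The liver breaks down most dietary tryptophan through the kynurenine pathway, which opens the indole ring and can end in new NAD, the carrier of electrons in metabolism and the substrate of sirtuins and PARP enzymes. Tdo2 and Ido2 encode dioxygenases that start the pathway, Afmid the formamidase that yields kynurenine, and Kmo, Kynu and Haao the enzymes that carry kynurenine on to an unstable intermediate. That intermediate closes into quinolinate by itself, which Qprt and Nadsyn1 turn towards NAD, unless the decarboxylase Acmsd removes it first. Aadat encodes an aminotransferase that draws kynurenine away into kynurenic acid.

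RNA came from livers of male PPARγ flox/flox mice that were injected once with AAV8 at 8 weeks of age. The vector carried Cre (PPARγ-KO) or eGFP (littermate controls, labelled wild-type) under the thyroxine-binding globulin promoter, which is active in hepatocytes, so PPARγ of other liver cells was not targeted. Every mouse, controls included, carried the floxed alleles, received AAV8 and ate a fast-food diet (FFD) rich in saturated fat, cholesterol and sucrose, with fructose and glucose in the drinking water, for 2 or 5 months. There were 3 libraries for each genotype and time, 12 in all. No source used here said whether a library was 1 mouse or a pool, and the p-values measure only the spread between these libraries. Total counts ran from 16367775 to 27452284 per library, and each member had at least 98 counts in every library. Levels are given as normalized CPM, the count scaled to the TMM-adjusted library size, and PPARγ-KO stands throughout for the libraries so labelled.

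The targeted transcript was higher, not lower, in the libraries labelled PPARγ-KO, and passed at both times (log2 fold change 0.52, adjusted p = 0.0309, and 1.15, adjusted p = 2.57e-06). Pparg ran from 37.6 to 41.4 CPM in wild-type and from 50.4 to 66.5 CPM in PPARγ-KO at 2 months, and from 36.9 to 41.4 CPM and from 75.0 to 92.9 CPM at 5 months. These counts cover the whole gene and do not show the floxed exons apart, so they check neither the deletion nor the labels, and PPARγ protein is not part of these files. Wild-type replicate 1 at 2 months stood apart from its group, and the counts at 2 months, and values of members that it changed, are also given without it. Hepatocyte markers were present in every library, with summed levels of 60520 to 71380 CPM in wild-type and 78590 to 91500 CPM in PPARγ-KO at 2 months, and 58670 to 63290 CPM and 79080 to 90370 CPM at 5 months. The albumin gene Alb made up most of each sum. Without Alb the sums were 18860 to 22510 CPM in wild-type and 24940 to 28000 CPM in PPARγ-KO at 2 months. At 5 months they were nearer, 24710 to 24830 CPM and 26910 to 27760 CPM. Of the 10 hepatocyte markers, 10 had a positive PPARγ-KO to wild-type fold change at 2 months (1 passed the test, or 5 without wild-type replicate 1) and 8 at 5 months (3 passed). Summed macrophage markers were 421.5 to 558.4 CPM in wild-type and 459.8 to 520.8 CPM in PPARγ-KO at 2 months, where 1 of 12 passed as higher and 2 as lower (2 and 3 without wild-type replicate 1). At 5 months the macrophage sums were 1167 to 1310 CPM and 549.8 to 722.4 CPM, and 10 of 12 passed as lower. In such bulk tissue, fewer cells of a type and less RNA per cell cannot be told apart, and the part of cell makeup in the differences below was not tested.

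Promoter windows from RefSeq (build GRCm38.p6, the same assembly as mm10), each of 300 bases from 250 before to 50 after the annotated start, were used for 7 of the 10 members, Tdo2, Afmid, Kmo, Haao, Aadat, Qprt and Nadsyn1. The element AGGTCA, a core that nuclear receptors can bind, was found on either strand in 2 of these 7 windows (Tdo2 and Haao) and in 16.3% of all 32851 windows. Those genes are shown because they share this element and stand at the first step and at the last enzymatic step before quinolinate. The bases before the start are printed 5′ to 3′ on the strand of the gene, with that element in capitals as its reverse complement TGACCT. They lie at chr3:81975729-81975978 (Tdo2) and chr17:83846791-83847040 (Haao), both on the minus strand.
Tdo2: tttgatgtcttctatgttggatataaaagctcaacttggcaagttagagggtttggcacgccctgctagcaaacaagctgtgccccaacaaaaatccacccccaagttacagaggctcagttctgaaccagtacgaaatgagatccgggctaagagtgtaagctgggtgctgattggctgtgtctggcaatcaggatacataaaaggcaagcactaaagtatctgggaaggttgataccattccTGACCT
Haao: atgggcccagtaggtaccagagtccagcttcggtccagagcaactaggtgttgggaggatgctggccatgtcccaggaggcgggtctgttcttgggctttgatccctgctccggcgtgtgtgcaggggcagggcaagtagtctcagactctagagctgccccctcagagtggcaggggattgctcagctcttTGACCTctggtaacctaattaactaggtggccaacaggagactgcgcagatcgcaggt

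In Tdo2 the element began 6 bases before the RefSeq start, and in Haao 58. The Tdo2 stretch lies inside the gene as the count tables bound it, since their Tdo2 reaches 81976202. The AHR core GCGTG was found in the windows of the same genes (32.4% of all windows held it). AGAACA, a glucocorticoid receptor core, was found in Kmo and Haao (19% of all windows), TATAAA in Tdo2 (13.6%), the HNF1 core GTTAAT in Haao (7.1%) and CAAAGTCCA, of the HNF4 type, in Aadat (0.475%). TTGCNNAA, of the C/EBP type, was in none of the 7 windows and in 10.8% of all windows. All motifs were searched on both strands, none of the matches overlapped another, and a match describes letters and not binding.

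The genes differed widely in level. Per kilobase of gene length, Tdo2 averaged 358.7 and Haao 348.5 normalized CPM over the 12 libraries, and their ranges overlapped. Qprt (80.5 CPM per kilobase) and Kmo (70.8) came next and overlapped each other, with Haao 4.33 times above Qprt. Aadat (31.2), Kynu (30.4) and Ido2 (21.6) formed a middle group in which each neighbour overlapped the next. Afmid (6.90), Nadsyn1 (6.49) and Acmsd (3.74) were lowest, again with overlapping neighbours. The ranges parted between Haao and Qprt, between Kmo and Aadat and between Ido2 and Afmid. Among these 10 genes, the one that removes the quinolinate precursor thus had the lowest mean, and the one that makes that precursor one of the highest. The order at the bottom was one of means, since in wild-type replicate 1 at 5 months Acmsd (4.54) lay above Nadsyn1 (4.28). On the scale of counts rather than length, Tdo2 held 48.4% to 52.3% of the summed CPM of the 10 genes in every library.

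**Figure D1:**
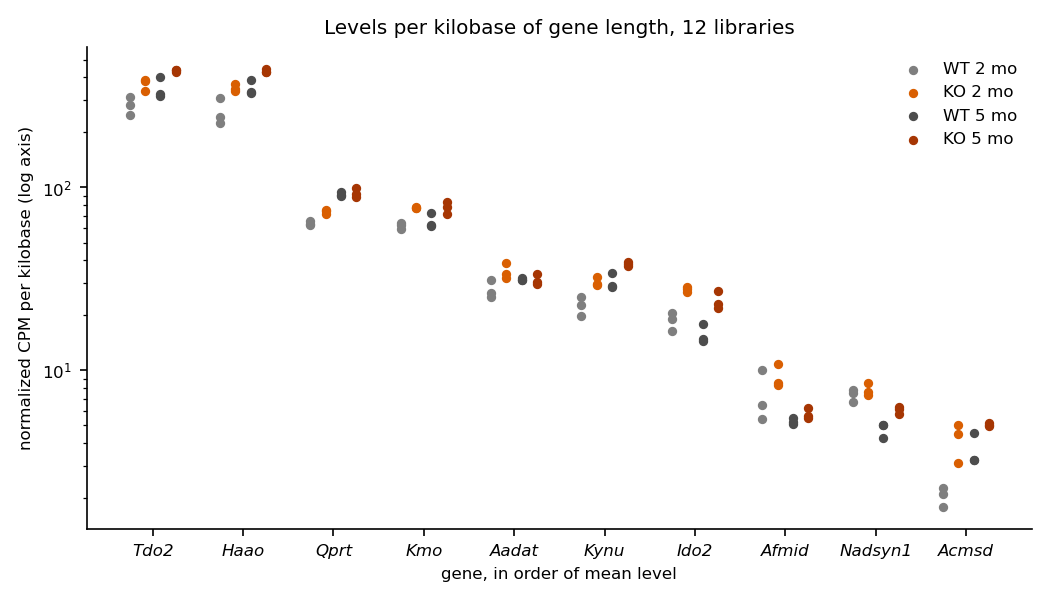
Normalized CPM per kilobase of gene length (log axis) of each gene in the 12 libraries, coloured by genotype (WT, wild-type; KO, labelled PPARγ-KO) and time and ordered by mean level. Tdo2 and Haao lie above all other genes in every library, and Acmsd, the lowest by mean, averages 3.74.

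To ask how the pathway differed between the libraries labelled PPARγ-KO and wild-type, they were compared within each time. At 2 months all 10 genes had a positive log2 fold change, with a median of 0.36 against -0.0048 over all genes tested. The 10 hepatocyte markers, also all positive, had a median of 0.47, so the shift was not particular to the pathway. Of the 10, 4 passed the test of edgeR as higher at an adjusted p below 0.05 (Ido2, Kmo, Kynu and Acmsd), while 1.78% of all genes tested passed as higher and 1.78% as lower. The groups did not overlap for 8 of the 10, which was so, in the same direction, for 12.1% of all genes tested. Leaving out wild-type replicate 1, the library that stood apart, gave 8 passing members among 1577 genes called in place of 519 (5.31% of all genes as higher), and leaving out wild-type replicate 2 gave 1 (Ido2) among 117 (0.33% as higher). With the replicate number as a block, 4 members passed (Ido2, Kynu, Haao and Acmsd) among 817 genes called (2.96% as higher). At 5 months 9 of 10 members were positive, with a median of 0.33 against -0.0058 over all genes and 0.22 over the hepatocyte markers. There 7 passed as higher (Tdo2, Ido2, Kmo, Kynu, Haao, Acmsd and Nadsyn1), against 8.90% of all genes as higher and 9.51% as lower, and 7 did not overlap, against 15.8%. With wild-type replicate 2 left out, 2 passed, among 1601 genes called (5.29% of all genes as higher). Since the list was proposed with these contrasts in view, nothing is read from the counts. The summed level of the 10 genes ran from 1996 to 2410 CPM in wild-type and from 2716 to 2948 CPM in PPARγ-KO at 2 months, and from 2511 to 3026 CPM and from 3248 to 3315 CPM at 5 months.

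**Figure D2:**
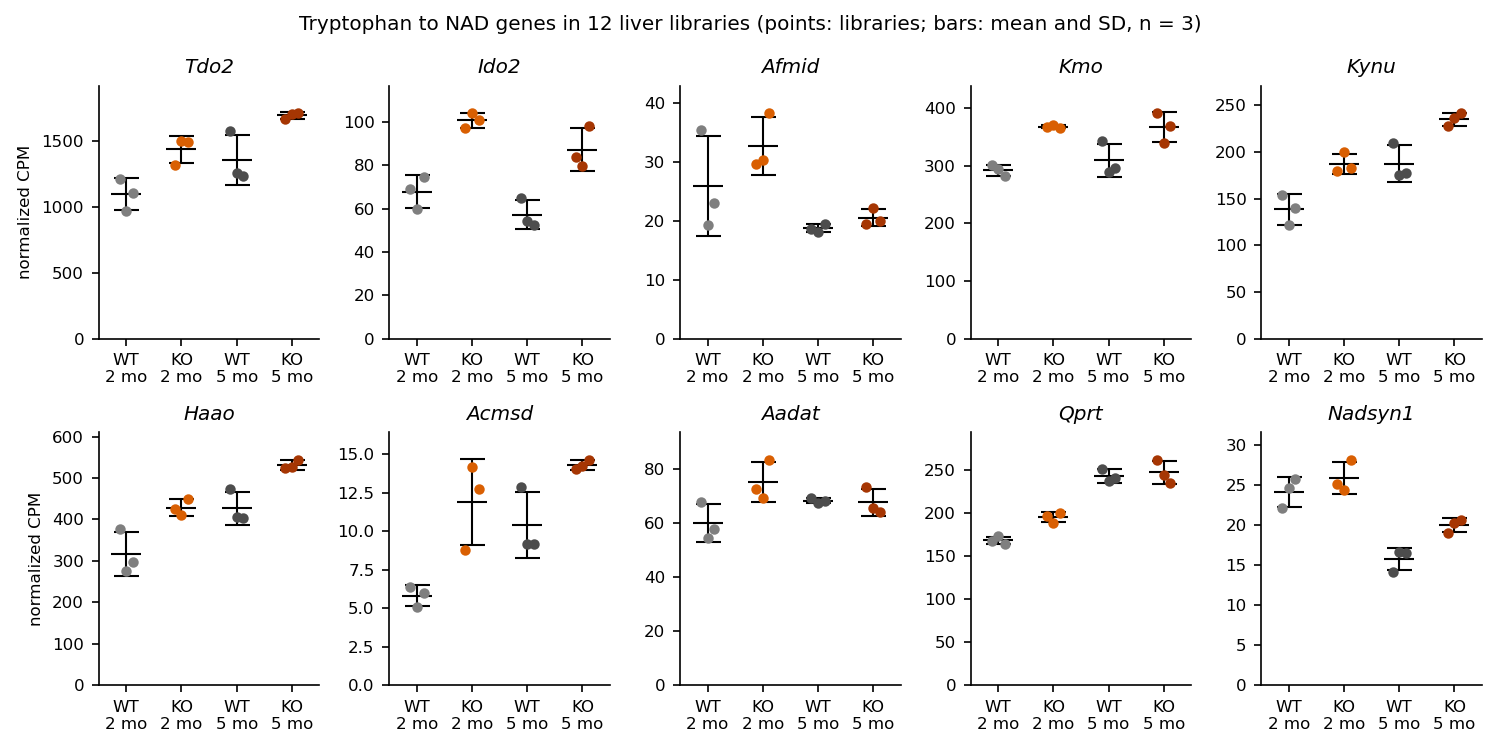
Normalized CPM of each gene in every library, with the group mean and SD (n = 3), for wild-type (WT) and libraries labelled PPARγ-KO (KO) after 2 and 5 months of FFD. Ido2 and Acmsd show PPARγ-KO points above all wild-type points at both times, whereas Aadat and Qprt part only at 2 months.

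Of the genes at the entry, Tdo2 encodes the main tryptophan dioxygenase of hepatocytes. At 2 months Tdo2 measured 1211, 969.2 and 1103 CPM in wild-type and 1315, 1497 and 1485 CPM in PPARγ-KO. After 5 months the values were 1569, 1254 and 1230 CPM in wild-type and 1662, 1700 and 1708 CPM in PPARγ-KO. The groups were apart at both times, and replicate 1 was the highest wild-type library each time. Tdo2 had a log2 fold change of 0.39 ± 0.105 (SE) at 2 months, which did not pass (adjusted p = 0.076), and 0.33 ± 0.093 at 5 months (adjusted p = 0.0245). Without wild-type replicate 1 the value at 2 months was 0.47 (adjusted p = 0.00514), and with DESeq2 it was 0.40 and passed (adjusted p = 0.00773). It did not pass in 9 of 13 alternatives, among them the replicate block (0.39, adjusted p = 0.108) and without wild-type replicate 2 (0.31, adjusted p = 0.266). The call at 5 months was lost without wild-type replicate 2 or 3 or PPARγ-KO replicate 2 or 3, at adjusted p-values of 0.128, 0.128, 0.0574 and 0.0811.

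Ido2, a relative of the inducible dioxygenase gene Ido1, gave the steadiest difference of the pathway. Its level at 2 months was 69.3, 59.8 and 74.6 CPM in wild-type and 97.3, 104.2 and 101.2 CPM in PPARγ-KO. Later, at 5 months, Ido2 was 65.2, 54.1 and 52.6 CPM in wild-type and 84.1, 79.6 and 98.4 CPM in PPARγ-KO. The lowest PPARγ-KO library of either time stood above the highest wild-type library of both times. On the log2 scale Ido2 differed by 0.57 ± 0.0871 at 2 months (adjusted p = 0.0105) and 0.62 ± 0.097 at 5 months (adjusted p = 0.00109). It passed under all 13 alternative settings at each time, with adjusted p-values of 3.76e-09 to 0.0412 at 2 months and 6.12e-14 to 0.00669 at 5 months. Ido1 itself had a mean of 0 CPM in both groups at 2 months and of 0.0389 and 0.0368 CPM in wild-type and PPARγ-KO at 5 months, too little for a test.

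Afmid, whose product releases kynurenine from its formyl form, was 35.3, 19.2 and 23.0 CPM in wild-type and 29.5, 30.2 and 38.2 CPM in PPARγ-KO at 2 months. The 5-month values were 18.5, 18.1 and 19.4 CPM in wild-type and 19.4, 22.1 and 19.9 CPM in PPARγ-KO. Wild-type replicate 1 at 2 months was higher than 2 of the 3 PPARγ-KO libraries, and at 5 months the groups barely parted, at 19.41 against 19.44 CPM. Neither difference passed (0.34 ± 0.236, adjusted p = 0.509, 95% interval -0.229 to 0.911 at 2 months, and 0.14 ± 0.0885, adjusted p = 0.311, interval -0.049 to 0.334 at 5 months). The 2-month value rested on single libraries. It was 0.63 (adjusted p = 0.0141) without wild-type replicate 1, 0.17 (adjusted p = 0.821) without wild-type replicate 2 and 0.21 (adjusted p = 0.773) without PPARγ-KO replicate 3. Afmid shares 169 bases with Tk1 on the opposite strand, which had 148 to 676 counts per library. It also shares 13981 bases with Gm20708, a protein-coding gene on the same strand that had 0 counts in every library. Whether reads shared with Gm20708 were counted for Afmid is not known, so its level could be too low.

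Kmo encodes the hydroxylase that commits kynurenine to the NAD branch. It measured 300.6, 294.7 and 281.7 CPM in wild-type and 366.9, 371.6 and 366.3 CPM in PPARγ-KO at 2 months. At 5 months the values were 342.8, 289.8 and 295.8 CPM in wild-type and 391.7, 339.7 and 369.2 CPM in PPARγ-KO. The 2-month groups were tight and well apart, whereas at 5 months wild-type replicate 1 was above PPARγ-KO replicate 2. Kmo had a log2 fold change of 0.33 ± 0.0712 at 2 months (adjusted p = 0.0334) and 0.26 ± 0.0799 at 5 months (adjusted p = 0.0413). With the replicate number as a block the 2-month call was lost (adjusted p = 0.0546), and it was lost without any 1 of the libraries other than wild-type replicate 1 (adjusted p = 0.0982 to 0.137). At 5 months it was lost without wild-type replicate 2 or 3 or PPARγ-KO replicate 1 or 3 (0.181, 0.161, 0.138 and 0.116), and at both times with library size alone as the scale (0.0714 and 0.0782). Kmo overlaps Fh1 on the opposite strand by 5255 bases, and Fh1 itself had fold changes of 0.04 (adjusted p = 0.823) and 0.14 (adjusted p = 0.229).

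Kynu encodes kynureninase, which cleaves the side chain of kynurenine and of its hydroxylated form. Its values at 2 months were 153.9, 121.6 and 139.4 CPM in wild-type and 179.6, 199.6 and 182.8 CPM in PPARγ-KO. Those at 5 months were 209.9, 175.5 and 176.9 CPM in wild-type and 227.5, 235.8 and 241.6 CPM in PPARγ-KO. The groups were apart at both times, and wild-type replicate 1 again came nearest to PPARγ-KO. Log2 fold changes were 0.44 ± 0.0936 at 2 months (adjusted p = 0.0335) and 0.34 ± 0.0754 at 5 months (adjusted p = 0.00747). The 2-month call was lost without any 1 of the libraries other than wild-type replicate 1 (adjusted p = 0.0887 to 0.121), and the 5-month call without wild-type replicate 2 (adjusted p = 0.05).

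Haao encodes the dioxygenase that makes the intermediate shared by quinolinate and by the Acmsd branch. In wild-type it measured 376.8, 274.5 and 297.4 CPM at 2 months, and in PPARγ-KO 424.7, 410.7 and 450.4 CPM. At 5 months the corresponding values were 473.0, 406.4 and 402.2 CPM and 523.1, 526.9 and 544.5 CPM. No wild-type library reached a PPARγ-KO library of the same time, and replicate 1 was the highest wild-type library at both. The log2 fold change was 0.44 ± 0.115 at 2 months, which did not pass (adjusted p = 0.0697), and 0.33 ± 0.0752 at 5 months (adjusted p = 0.00895). The 2-month value passed with the replicate block (0.45, adjusted p = 0.0393), with DESeq2 (0.45, adjusted p = 0.0086) and without wild-type replicate 1 (0.59, adjusted p = 0.000573). It did not pass in 8 of 13 alternatives, among them without wild-type replicate 2 (0.35, adjusted p = 0.244). The 5-month call was lost without wild-type replicate 2 (adjusted p = 0.0594) or 3 (adjusted p = 0.0589).

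On the side branches, Acmsd had the largest 2-month log2 fold change of the 10 genes. Its counts were the lowest, 98 to 342 per library. Acmsd overlaps 2900009J06Rik, an antisense gene with 0 to 5 counts per library, by 14363 bases. At 2 months it measured 6.38, 5.04 and 5.985 CPM in wild-type and 8.80, 14.1 and 12.7 CPM in PPARγ-KO. Its 5-month values were 12.8, 9.15 and 9.13 CPM in wild-type and 14.01, 14.2 and 14.6 CPM in PPARγ-KO. The groups were apart at both times, but PPARγ-KO replicate 1 at 2 months lay close to wild-type and wild-type replicate 1 at 5 months lay close to PPARγ-KO. The log2 fold change was 1.03 ± 0.19 at 2 months (adjusted p = 0.0201, 95% interval 0.61 to 1.46) and 0.47 ± 0.133 at 5 months (adjusted p = 0.0255, interval 0.186 to 0.761). The first was lost without wild-type replicate 2 or 3 or PPARγ-KO replicate 2 or 3 (adjusted p = 0.0895, 0.0761, 0.0683 and 0.0767). The second was lost without the same replicates of the 5-month groups (0.113, 0.115, 0.0579 and 0.0815) and in a fit of all 12 libraries (0.0846).

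Aadat, which sends kynurenine to kynurenic acid, was 67.8, 54.5 and 58.0 CPM in wild-type and 72.9, 69.4 and 83.7 CPM in PPARγ-KO at 2 months. In the 5-month groups Aadat was 69.5, 67.5 and 68.2 CPM in wild-type and 73.5, 65.8 and 64.2 CPM in PPARγ-KO. The groups were apart at 2 months and fully mixed at 5 months. The log2 fold change was 0.33 ± 0.0998 at 2 months (adjusted p = 0.108, or 0.0124 with a value of 0.42 without wild-type replicate 1) and -0.00079 ± 0.067 at 5 months (adjusted p = 0.996, 95% interval -0.146 to 0.144). The 2-month value did not pass in 10 of 13 alternatives, among them without wild-type replicate 2 (0.26, adjusted p = 0.357).

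Of the last steps, Qprt encodes the transferase that consumes quinolinate. It was 166.8, 172.8 and 164.2 CPM in wild-type and 196.5, 188.6 and 199.2 CPM in PPARγ-KO at 2 months. After 5 months Qprt was 251.2, 236.5 and 239.9 CPM in wild-type and 261.7, 243.9 and 234.4 CPM in PPARγ-KO. The groups were apart at 2 months and mixed at 5 months. Neither difference passed, at 0.21 ± 0.0665 (adjusted p = 0.115) and 0.04 ± 0.065 (adjusted p = 0.766, 95% interval -0.105 to 0.176).

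Nadsyn1, the synthetase that completes NAD, showed the opposite order in time. It was 22.1, 24.7 and 25.8 CPM in wild-type and 25.2, 24.3 and 28.2 CPM in PPARγ-KO at 2 months. After 5 months Nadsyn1 was 14.2, 16.6 and 16.5 CPM in wild-type and 19.1, 20.3 and 20.7 CPM in PPARγ-KO. The groups were mixed at 2 months and apart at 5 months. The log2 fold change was 0.10 ± 0.0969 (adjusted p = 0.64, 95% interval -0.116 to 0.315) and 0.35 ± 0.0966 (adjusted p = 0.0221). The 2-month value was 0.04 (adjusted p = 0.848) without wild-type replicate 1 and 0.04 (adjusted p = 0.915) without PPARγ-KO replicate 3. The 5-month call was lost without PPARγ-KO replicate 2 (adjusted p = 0.0599) or 3 (adjusted p = 0.077) and with library size alone as the scale (adjusted p = 0.0759).

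**Figure D3:**
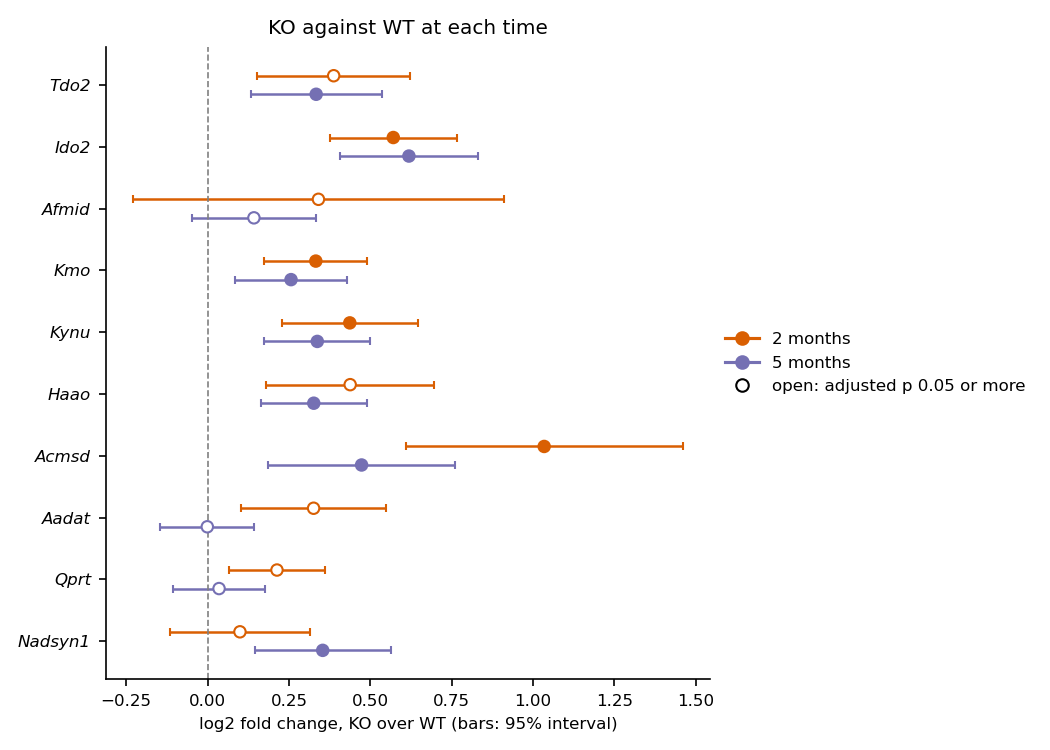
Log2 fold change of PPARγ-KO (KO) over wild-type (WT) for each gene at 2 and 5 months, with the 95% interval of the fit, filled where the adjusted p was below 0.05. The intervals of Tdo2, Ido2, Kmo, Kynu, Haao and Acmsd lie above 0 at both times, and those of Aadat and Qprt include 0 at 5 months.

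Whether the PPARγ-KO effect itself changed between the times was tested in 1 fit of the 12 libraries. None of the 10 genes passed at an adjusted p below 0.05 with edgeR or with DESeq2, whereas 1.57% of all genes tested passed with edgeR in either direction. An unadjusted p below 0.05 was found for 2 of the 10 and for 14.9% of all genes tested. Those 2 were Acmsd, with an effect smaller at 5 months by -0.57 ± 0.244 on the log2 scale (adjusted p = 0.277), and Aadat, at -0.34 ± 0.125 (adjusted p = 0.2, or 0.0449 without wild-type replicate 1 at 2 months). For Ido2 the difference between the times was 0.04, with a 95% interval of -0.261 to 0.334, and for Tdo2 it was -0.07, with an interval of -0.374 to 0.243. Nadsyn1 had the most positive difference, 0.24 (interval -0.038 to 0.525). Nadsyn1 was called at 5 months alone, and Aadat and Qprt, whose groups were apart at 2 months alone, were called at neither time. None of these differences was thus shown to be an effect of 1 time.

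Ratios between genes of the same library need no scaling between libraries, and 3 were followed, each per kilobase and with no test. The ratio of Acmsd to Qprt sets the branch away from quinolinate against the branch to NAD. At 2 months wild-type libraries had 0.0357, 0.0273 and 0.0341, and PPARγ-KO libraries 0.0418, 0.07 and 0.0597. At 5 months wild-type libraries had 0.0478, 0.0361 and 0.0356, and PPARγ-KO libraries 0.05, 0.0544 and 0.0583. All PPARγ-KO libraries lay above all wild-type libraries of their time, and at 5 months wild-type replicate 1 lay just below the lowest PPARγ-KO library. Kmo to Aadat, the NAD branch against kynurenic acid, had means of 2.26 ± 0.225 (SD, n = 3) in wild-type and 2.27 ± 0.229 in PPARγ-KO at 2 months, with mixed libraries. At 5 months it was 1.98 to 2.27 in wild-type and 2.38 to 2.65 in PPARγ-KO, and the groups were apart. Tdo2 to Ido2 was 13.9 to 16.4 and 12.7 to 13.7 at 2 months and 21.7 to 22.6 and 16.3 to 20 at 5 months, lower in PPARγ-KO without overlap at both times.

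**Figure D4:**
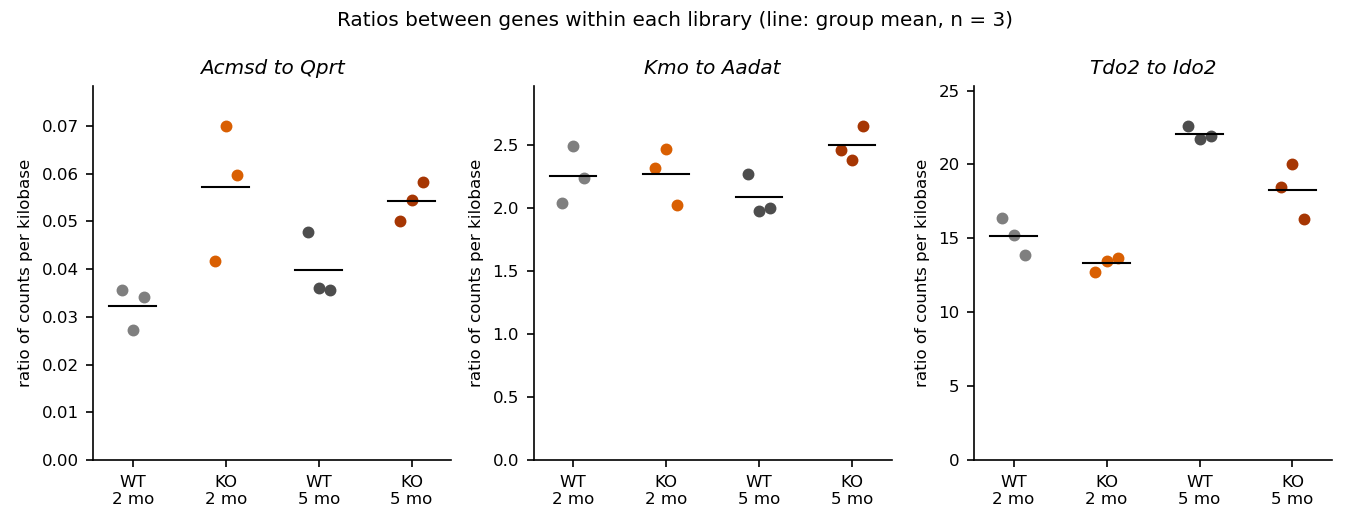
Ratio of counts per kilobase between pairs of genes in each library, with the group mean as a line (n = 3), for wild-type (WT) and PPARγ-KO (KO) at each time. Acmsd to Qprt is higher in PPARγ-KO at both times, Kmo to Aadat is higher only at 5 months, and Tdo2 to Ido2 is lower at both.

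Each genotype was then compared between 5 and 2 months of FFD. The mice were also older at 5 months, and diet time, age and any batch of library preparation cannot be told apart. In wild-type, 4 of the 10 genes passed as higher at 5 months (Kynu, Haao, Acmsd and Qprt) and 1 as lower (Nadsyn1), while 23.8% of all genes tested passed as higher and 22.7% as lower. Without wild-type replicate 1 at 2 months 7 passed, Tdo2 and Aadat in addition, among 6968 genes called in place of 6725 (24.2% as higher and 22.8% as lower). The groups were apart for 5 as higher (28.8% of all genes) and for 1 as lower (28.0%). In PPARγ-KO, 4 passed as higher (Tdo2, Kynu, Haao and Qprt) and 3 as lower (Ido2, Afmid and Nadsyn1), against 22.7% and 22.2% of all genes, and 4 were apart as higher and 2 as lower, against 28.2% and 27.5%. Both comparisons moved a large share of all genes, and the shares of the 10 genes are read no further.

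Qprt rose in both genotypes, by 0.53 ± 0.0724 on the log2 scale in wild-type (adjusted p = 2e-04) and by 0.34 ± 0.0599 in PPARγ-KO (adjusted p = 0.000892). Nadsyn1, further along, fell in both, with -0.62 ± 0.105 in wild-type (adjusted p = 8e-04) and -0.38 ± 0.0853 in PPARγ-KO (adjusted p = 0.00408). The genes of the final steps thus moved in opposite directions with time, and their groups did not overlap in either genotype. Kynu rose by 0.44 (adjusted p = 0.00589) and 0.32 (adjusted p = 0.00134), and Haao by 0.43 (adjusted p = 0.0157) and 0.31 (adjusted p = 0.00157) in wild-type and PPARγ-KO. The wild-type call for Haao was lost without wild-type replicate 2 or 3 at 2 months or replicate 1 at 5 months, with an adjusted p of up to 0.065. Acmsd rose in wild-type by 0.84 ± 0.178 (adjusted p = 0.00307), and its value in PPARγ-KO was 0.26 ± 0.152 (adjusted p = 0.187).

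At the entry, Tdo2 was 0.30 higher in wild-type, which did not pass (adjusted p = 0.063), although it passed in 5 of 13 alternatives. In PPARγ-KO Tdo2 rose by 0.24 (adjusted p = 0.015), a call lost in 2 of 13 alternatives, among them without PPARγ-KO replicate 1 at 2 months. Ido2 went the other way, with -0.25 in wild-type (adjusted p = 0.0722) and -0.21 in PPARγ-KO (adjusted p = 0.0474), where the groups overlapped and 9 of 13 alternatives lost the call. Afmid was -0.47 ± 0.214 in wild-type (adjusted p = 0.112) and fell in PPARγ-KO, at -0.68 ± 0.107 (adjusted p = 0.000444), beside a fall of its opposite-strand neighbour Tk1 of -0.60 (adjusted p = 0.0116) and -0.81 (adjusted p = 0.0327). Kmo and Aadat stayed under the threshold in both genotypes, with 0.08 and 0.19 in wild-type and -0.01 and -0.15 in PPARγ-KO. Fh1, which overlaps Kmo, rose by 0.26 (adjusted p = 0.0206) and 0.34 (adjusted p = 0.00315).

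**Figure D5:**
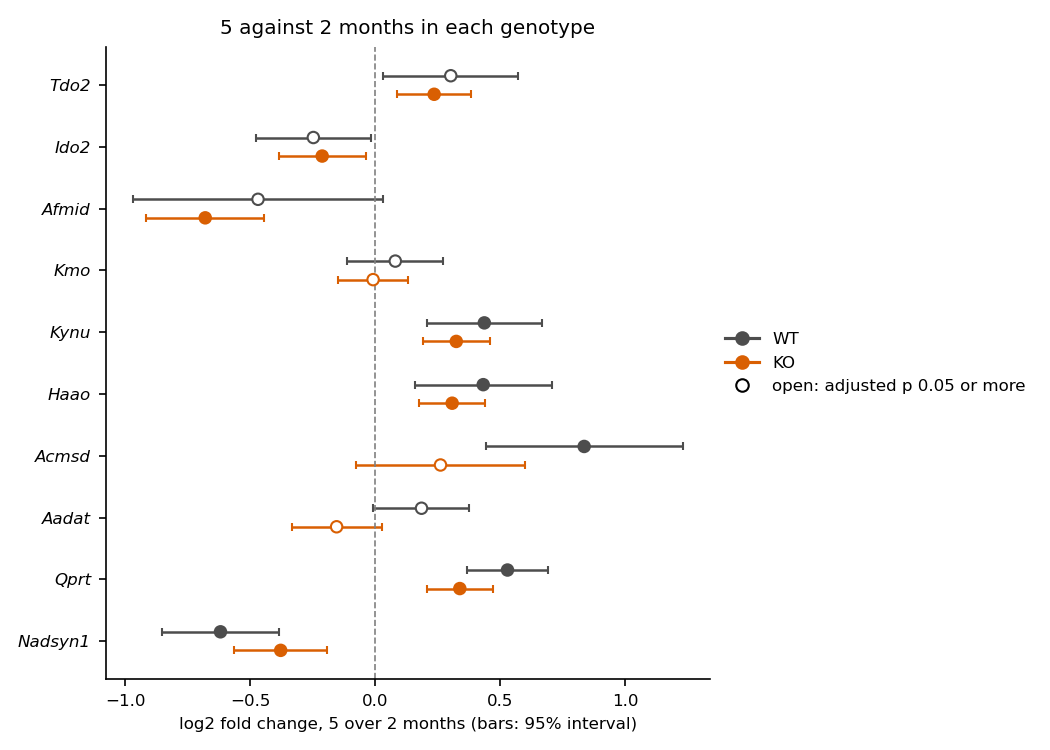
Log2 fold change of 5 over 2 months for each gene in wild-type (WT) and PPARγ-KO (KO), with the 95% interval of the fit, filled where the adjusted p was below 0.05. Qprt, Kynu and Haao lie above 0 and Nadsyn1 below 0 in both genotypes.

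Other genes around the pathway were followed by lists. Of 13 further enzymes of tryptophan and kynurenine metabolism, 10 could be tested, and none passed at 2 months with edgeR. There 6 had an unadjusted p below 0.05, against 18.9% of all genes tested, and DESeq2 called 1, Kyat1. Without wild-type replicate 1, 3 of the 10 passed at 2 months as higher (Aldh8a1, Dhtkd1 and Maob, named after their values were seen). At 5 months 3 of the 10 passed as higher and none as lower: the kynurenine aminotransferase gene Kyat1 (0.32, adjusted p = 0.0265), the ketoacid dehydrogenase gene Dhtkd1 (0.47, adjusted p = 0.000236) and the monoamine oxidase gene Maob (0.23, adjusted p = 0.0393). Of the NAD salvage and phosphorylation genes, Pnp, a purine nucleoside phosphorylase gene, was the 1 of 13 that passed at 2 months with edgeR (0.51, adjusted p = 0.0223). It was joined by Naprt without wild-type replicate 1 and with DESeq2 (adjusted p = 0.0436). At 5 months 3 of 12 passed, Naprt, which enters nicotinic acid into NAD synthesis (0.22, adjusted p = 0.0274), the mitochondrial NAD kinase gene Nadk2 (0.23, adjusted p = 0.0392) and the aldehyde oxidase gene Aox1 (0.38, adjusted p = 0.0279). Nampt, the rate-limiting enzyme of nicotinamide salvage, did not pass at either time (-0.21, adjusted p = 0.494, and 0.11, adjusted p = 0.351) and is named here after its values were seen.

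Among 14 NAD-consuming enzymes tested, none passed at 2 months with edgeR or DESeq2 (2 had an unadjusted p below 0.05, against 18.9% of all genes). At 5 months Parp1 rose with edgeR (0.23, adjusted p = 0.0302) but did not pass with DESeq2 (adjusted p = 0.0853). Cd38, an NAD hydrolase gene also expressed by immune cells, fell (-0.61, adjusted p = 0.000321). At 5 months 3 of the 14 had an unadjusted p below 0.05, against 30.7% of all genes. Of 7 transporters of tryptophan and large neutral amino acids, none passed at 2 months with either tool (2 had an unadjusted p below 0.05). Slc7a8 fell at 5 months (-0.86, adjusted p = 0.000201), where 5 of the 7 had an unadjusted p below 0.05. Without wild-type replicate 1 the 2-month counts became 1 higher (Sirt7) and 1 lower (Cd38) of the consumers, and 3 higher (Slc16a10, Slc43a1 and Slc38a4) and 2 lower (Slc7a8 and Slc43a2) of the transporters, names again given after their values were seen. Among 7 tested genes of the aryl hydrocarbon receptor AHR, which kynurenine metabolites can activate, Cyp1a2 rose at both times (1.06, adjusted p = 0.00549, and 1.26, adjusted p = 2.12e-05). The other AHR genes did not pass at 2 months with edgeR, while DESeq2 also called Ahr as higher (adjusted p = 0.0432). With edgeR these other genes ran from -1.19 (Cyp1b1, adjusted p = 0.0746, called lower without wild-type replicate 1) and -0.56 (Nqo1, adjusted p = 0.238) to 0.41 (Cyp1a1, adjusted p = 0.671), with a list median of 0.0313. At 5 months Arnt, the partner of AHR, rose with edgeR (0.25, adjusted p = 0.0194) but did not pass with DESeq2 (adjusted p = 0.0643), and the list median was 0.382.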

How the data were processed

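For every library the authors deposited raw read counts per gene beside the identifier, position and length of that gene. RNA was extracted with TRIzol, and Novogene sequenced it on an Illumina NovaSeq. The submitters' processing notes name HISAT2 and mm10, whereas the paper names STAR. The counting program, the annotation and strand use are not given in the sources used here, so reads of overlapping genes on opposite strands could not be told apart. How reads shared by genes on the same strand were counted is not known either.

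The 10 genes and all gene lists were chosen with earlier results of these data known. Groups followed the sample labels. Counts were scaled by TMM, low-count genes were removed with filterByExpr, and each pair of groups was fitted with edgeR's robust quasi-likelihood method and tested with its two-sided F-test. Benjamini-Hochberg adjustment covered all genes of a fit, and an adjusted p below 0.05 passed. The effect of time on the PPARγ-KO effect came from 1 fit with 4 group means. Intervals at 95% are the fold change ± the t quantile times its SE. CPM were scaled over all 12 libraries together. Tools were R 4.3.3, edgeR 4.0.16, limma 3.58.1 and DESeq2 1.42.0. The fit was tested on simulated data.

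Named genes were the 10 members, Pparg, genes overlapping a member, up to 6 genes per companion list that passed in PPARγ-KO against wild-type at that time, and for the 2 members with the largest fold change at 5 months the 5 genes most like them in level (Pearson correlation of log2 CPM + 0.5). Alternatives were an unadjusted p, DESeq2, other scalings and filters, all libraries in 1 fit, the replicate number as a block, and each library left out in turn. Leaving wild-type replicate 1 at 2 months out of the gene lists was added after seeing the data. On the 5000 most abundant genes, same-numbered PPARγ-KO and wild-type libraries at 2 months deviated together from their group means (r = 0.22, 0.324 and 0.14), so blocked values stand beside the 2-month results they change. The labels do not say what a number marks, and at 5 months the correlations were -0.0779, -0.0603 and -0.179. Chi-square per gene, near 1 for counting error alone, was taken between libraries of the same group. It was lowest, 2.44, between wild-type replicates 2 and 3 at 5 months, and 9.4 or more for every other pair. No pair within a group thus differed by counting error alone, but whether libraries shared an animal or RNA was not tested. The value was 31.7 and 27.6 between wild-type replicate 1 at 2 months and its group. The promoter window of 1 member and the individual values of 1 marker gene are not reported here.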

Additional observations from a re-analysis of the deposited data

How the results depend on the processing

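At 2 months, 8 members passed at an unadjusted p below 0.05, 7 with no filter and 7 in a fit of all 12 libraries, against 4 as reported. Of all genes in those settings, 9.35%, 3.08% and 3.69% passed as higher, against 1.78% as reported. DESeq2 called 6, with Tdo2 and Haao in addition, and 1.89% of all genes as higher. DESeq2 and the fit with no filter took in 26253 genes, against 14573 as reported. With each library left out the lowest number was 1 (wild-type replicate 2 left out, 0.33% of all genes as higher) and the highest 8 (wild-type replicate 1 left out, 5.31%). Genes called, 519 as reported, were 2749 at an unadjusted p, 947 with DESeq2, 1562 with no filter, 1153 in the fit of all libraries and 817 with the replicate block, and were fewest, 117, with wild-type replicate 2 left out and most, 1577, with wild-type replicate 1 left out. At 5 months, 7 members passed, 2 (without wild-type replicate 2) to 7 with a library left out, and 2602 genes were called, 4344 at an unadjusted p and 1593 (without wild-type replicate 3) to 3078 with a library left out. Without wild-type replicate 2, 5.29% of all genes passed as higher, against 8.90% as reported. Over time in wild-type, 5 members passed, 8 with no filter and 4 to 7 with a library left out, and 6725 genes were called (5357 to 6968). With no filter 14.3% of 26588 genes passed as higher and 13.3% as lower. Without wild-type replicate 3 at 2 months, which gave 4, the shares were 20.3% and 19.6%. Without replicate 1 at 2 months, which gave 7, they were 24.2% and 22.8%. Over time in PPARγ-KO, 7 members passed (5 to 7 with a library left out) and 6502 genes were called (5374 to 6024). Without PPARγ-KO replicate 1 at 2 months, which gave 5, 18.7% of all genes passed as higher and 18% as lower. Without PPARγ-KO replicate 3 at 5 months, which gave 7, the shares were 19.3% and 17.8%. For the change of the PPARγ-KO effect, 0 members passed with edgeR, 2 at an unadjusted p, 0 with DESeq2 and 0 to 1 with a library left out. The 238 genes called there became 2250 at an unadjusted p, 565 with DESeq2, 793 with no filter, and 83 (without wild-type replicate 3 at 5 months) to 567 (without wild-type replicate 1 at 2 months).

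The log2 fold changes that changed sign all lay near 0 and passed no test. At 5 months Aadat became 0.001345 with DESeq2, 0.002842 with its size factors and -0.05957 to 0.03913 with a library left out, and Qprt became -0.03193 with library size alone and -0.005551 to 0.07255 with a library left out. Over time, Kmo became -0.001634 in wild-type with library size alone and -0.05029 to 0.04807 in PPARγ-KO with a library left out. For the change of the effect, Tdo2 ran from -0.1402 to 0.05711 and Ido2 from -0.05662 to 0.1397 with a library left out. The cause of these changes was not tested, beyond fewer libraries in the fits that left one out. The replicate block also lost the Ido2 call over time in PPARγ-KO and gave Ido2 and Tdo2 calls over time in wild-type. Same-numbered wild-type libraries of the 2 times had r = 0.238, 0.185 and 0.0191, against -0.287 to 0.266 for differently numbered ones. The block changed no other call of a member beyond Kmo and Haao at 2 months. Acmsd had the fewest counts, 98 to 342 per library. The ratio of Kmo to Aadat at 2 months lay at about 1, PPARγ-KO over wild-type, and fell on either side of it with a library left out (0.96 to 1.06), while the other ratios kept their direction without gene length and with each library left out.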

Other observations

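Some of the spread within groups was shared by pairs of members. Wild-type replicate 1 had the highest level of its group for 8 of the 10 genes at 5 months and for 7 at 2 months, and wild-type replicate 2 at 2 months had the lowest for 7. Among the PPARγ-KO libraries at 2 months the highest level was split between replicates 2 and 3, with 5 genes each. Over the 12 libraries the 45 pairs of members had a median Pearson r of 0.555, from -0.749 (Qprt and Nadsyn1) to 0.975 (Tdo2 and Kynu). With group means taken out the median was 0.434, from -0.72 (Kmo and Nadsyn1) to 0.935 (Tdo2 and Kynu), and 31 of the 45 pairs were positive. These correlations share libraries and scaling and are given as a description.

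Over the same 12 libraries and 13170 genes with a mean of at least 1 CPM, the genes most like Ido2 in level were Pbld2 (r = 0.976), Tedc2 (0.965), Tmem86b (0.956), Lmbrd2 (0.95) and Gm10033 (0.949). Those most like Acmsd were Tdo2 (0.962), Paics (0.952), Kynu (0.951), Slc25a15 (0.944) and Naprt (0.943), so the list for Acmsd held 2 other genes of the pathway and that for Ido2 held none.

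Among other cell markers in PPARγ-KO against wild-type at 5 months, 2 of 3 B cell, 2 of 3 neutrophil, 3 of 6 endothelial and 2 of 6 stellate cell markers tested passed as lower, and 1 of 5 cholangiocyte and 1 of 3 erythroid markers as higher. Of 5 T and NK cell markers none passed with edgeR (2 had an unadjusted p below 0.05, against 30.7% of all genes tested, and DESeq2 called 2).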
